A study of Mus musculus with 4 samples.

Results

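The genes described here are the potassium channel genes of the mouse, taken as every gene whose symbol begins with Kcn and a lower-case letter. Kcnj10 and the symbols ending in os, os1, ot1 or -ps were left out, which removed Kcnj10, Kcnab3os, Kcnd3os, Kcnmb4os1 and Kcnq1ot1. This gave 94 genes of the 55403 features counted. The antisense RNA Kcnmb4os2 stays in by the letter of the rule. Of the 94 genes, 77 had at least 100 unique molecular identifiers (UMIs, each standing for 1 captured RNA molecule) over the 4 libraries and are described singly, 17 had fewer, and 0 had none. The members held 1686152 of 133904204 UMIs, or 1.259%. Kcnip4 gave 38.72% of the member UMIs and Kcnd2 15.32%. These shares follow gene length as well as expression: across the 88 members with an annotated span, Spearman's rho between UMIs and span was 0.673, given as a description only. Per kilobase of gene span the order was different. Among the members named here the highest were Kcna1 at 3312 UMIs per kb, Kcnrg at 1038, Kcnip4 at 575.0, Kcna4 at 506.7 and Kcnd2 at 502.3.

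Potassium channels let potassium ions leave or enter a cell down their electrochemical gradient. They set the resting potential, end the action potential and control how often a neuron fires. Voltage-gated channels (Kv) open on depolarization, calcium-activated channels (BK, SK and IK) open when calcium rises, inward rectifiers (Kir) and tandem-pore leak channels (K2P) hold the resting potential, and sodium-activated channels respond to sodium load. Auxiliary subunits such as the Kv channel-interacting proteins (Kcnip), the Kv beta subunits (Kcnab), the BK beta subunits (Kcnmb) and the Kcne peptides change how a pore opens, closes or reaches the membrane. In the hippocampus the pore genes are used in different sets by granule cells, pyramidal cells, interneurons and glia, and glial channels also clear potassium from the space around neurons.

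The data were UMI counts per nucleus from 4 single-nucleus RNA-seq libraries of frozen hippocampus. The groups were wild type (WT, 1 library), PS19 (2 libraries) and TG_PS19 (1 library). PS19 mice carry a human tau transgene, MAPT with the P301S mutation in the 1N4R form, under the Prnp promoter, which is active in neurons and in other cells (line PS19Vle, B6;C3 background). TG_PS19 mice carry that transgene and in addition a SORLA transgene at Rosa26 under a CMV/β-actin promoter. Tissue was pooled within a group, and about 10000 nuclei per run were captured with the 3′ chemistry of 10x Genomics (version 3.1) and sequenced on a NovaSeq 6000 instrument. The labels give neither the age, the sex and the number of the animals, nor whether the PS19 libraries came from separate animals, so the spread between them may be technical. Human MAPT had 0 UMIs in WT (a count of 0 allows up to 3), 357 and 489 in the PS19 libraries and 489 in TG_PS19. Human SORL1 had 2537 UMIs in TG_PS19 and between 0 and 7 elsewhere.

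The libraries held 4643 to 12762 barcodes and 20064025 to 48670533 UMIs, with a median of 2643 to 3708.5 UMIs per barcode. Any 2 libraries shared 5 to 32 barcodes, at most 0.474% of the smaller. The TG_PS19 library stood apart in sex: 4942 of its 8963 kept nuclei had an Xist UMI, against 91 in WT and 48 and 71 in the PS19 libraries, so sex and the SORLA transgene cannot be fully told apart in its comparisons. Nuclei were clustered without the potassium channel genes and clusters were named from marker lists. Each class name below stands for nuclei like that type. The 12 classes with at least 50 nuclei in every library were dentate granule neurons, CA1 neurons, other excitatory neurons, Cajal-Retzius neurons, inhibitory neurons, oligodendrocyte precursors, oligodendrocytes, astrocytes, microglia, endothelial cells, mural cells and fibroblasts. Dentate granule neurons (485 to 1622 nuclei per library) and CA1 neurons (113 to 331), which mark the hippocampus, were present in every library. Choroid plexus epithelium kept 0, 25, 25 and 36 nuclei in WT, PS19 replicate 1, PS19 replicate 2 and TG_PS19. Doublet removal set the WT value: with doublets kept, a choroid plexus cluster held 40, 25, 25 and 41 nuclei, and all 40 of WT had been scored as doublets. Levels are given in CPM, the UMIs of a gene over all UMIs of its class in a library on the usual scale for counts. The order of values is WT, PS19 replicate 1, PS19 replicate 2 and TG_PS19, and an SD is given only for the PS19 pair.

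The pore loop of most potassium channels holds a short signature, threonine, any residue, glycine, tyrosine and glycine, which lines the filter that passes potassium and holds back sodium. The coding sequence of each member in GENCODE M21 (build GRCm38) was searched in frame, on the coding strand, for the letters ACNNNNGGNTANGGN and for the form with phenylalanine in place of tyrosine. Of 93 protein-coding members, 65 had a match, against 228 of 21778 protein-coding genes (1.05%). All 14 K2P members had one and 11 of them had 2 matches, while the 16 auxiliary members had none. The windows below belong to pore genes whose levels the results turn on. They show 33 bases of coding sequence, 5′ to 3′, with the 15 bases of the signature in capitals.
Kcna1, chr6:126642219-126642251, minus strand, exon 2 of 2: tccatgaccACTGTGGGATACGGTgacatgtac
Kcna4, chr2:107296486-107296518, plus strand, exon 2 of 2: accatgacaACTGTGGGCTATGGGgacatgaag
Kcnb2, chr1:15710037-15710069, plus strand, exon 2 of 2: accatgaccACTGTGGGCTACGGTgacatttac
Kcnc2, chr10:112456220-112456252, plus strand, exon 3 of 5: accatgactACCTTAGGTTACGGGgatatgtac
Kcnd2, plus strand of chromosome 6, across the junction of exons 1 and 2 of 6: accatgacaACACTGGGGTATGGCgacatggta
Kcnma1, chr14:23528404-23528436, minus strand, exon 8 of 30: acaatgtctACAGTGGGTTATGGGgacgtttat
Kcnj2, chr11:111072198-111072230, plus strand, exon 2 of 2: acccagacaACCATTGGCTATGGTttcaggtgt
Kcnj3, chr2:55437618-55437650, plus strand, exon 2 of 4: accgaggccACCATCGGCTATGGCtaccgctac
Kcnj8, chr6:142566439-142566471, minus strand, exon 3 of 3: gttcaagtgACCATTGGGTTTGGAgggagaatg
Kcnj13, chr1:87389012-87389044, minus strand, exon 2 of 3: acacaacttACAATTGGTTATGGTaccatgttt
Kcnk2, match 1, minus strand of chromosome 1, across exons 3 and 4 of 7: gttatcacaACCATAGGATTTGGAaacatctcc
Kcnk2, match 2, chr1:189256572-189256604, minus strand, exon 5 of 7: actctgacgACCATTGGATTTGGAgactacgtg
Kcnk13, match 1, plus strand of chromosome 12, across exons 2 and 3 of 3: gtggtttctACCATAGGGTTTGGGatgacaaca
Within these windows the capital letters differ at the free positions, and Kcnj8, Kcnk2 and Kcnk13 hold the phenylalanine form. Kcnh1, Kcnh2, Kcnh3, Kcnh4, Kcnh6, Kcnh7, Kcnh8, Kcnn1, Kcnn2, Kcnn3, Kcnj14 and Kcnrg also had no match, which says only that these letters are not in their annotated coding sequence.

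Each neuron class carried more potassium channel RNA per UMI than any glial or vascular class, among which oligodendrocyte precursors were the highest. The summed level of the members averaged 24980 CPM over 4 libraries in Cajal-Retzius neurons, 24570 in dentate granule neurons (range 23530 to 25080), 22690 in CA1 neurons, 19420 in other excitatory neurons and 13310 in inhibitory neurons. It was 9903 CPM in oligodendrocyte precursors (9386 to 10230), 3628 in oligodendrocytes, 3459 in astrocytes, 2721 in fibroblasts, 2045 in mural cells, 1752 in microglia and 1164 in endothelial cells. Of the 77 genes described singly, 42 had their highest mean in a neuron class and 35 elsewhere. Dentate granule neurons led for 15 genes, other excitatory neurons for 9, oligodendrocyte precursors and inhibitory neurons for 8 each, and oligodendrocytes, Cajal-Retzius neurons and microglia for 6 each. In 42 of the 77 the lowest library of the leading class was above the highest library of the second class. In the others the ranges of these classes overlapped. The same share over all genes is not given here, so this count is a description only.

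**Figure D1:**
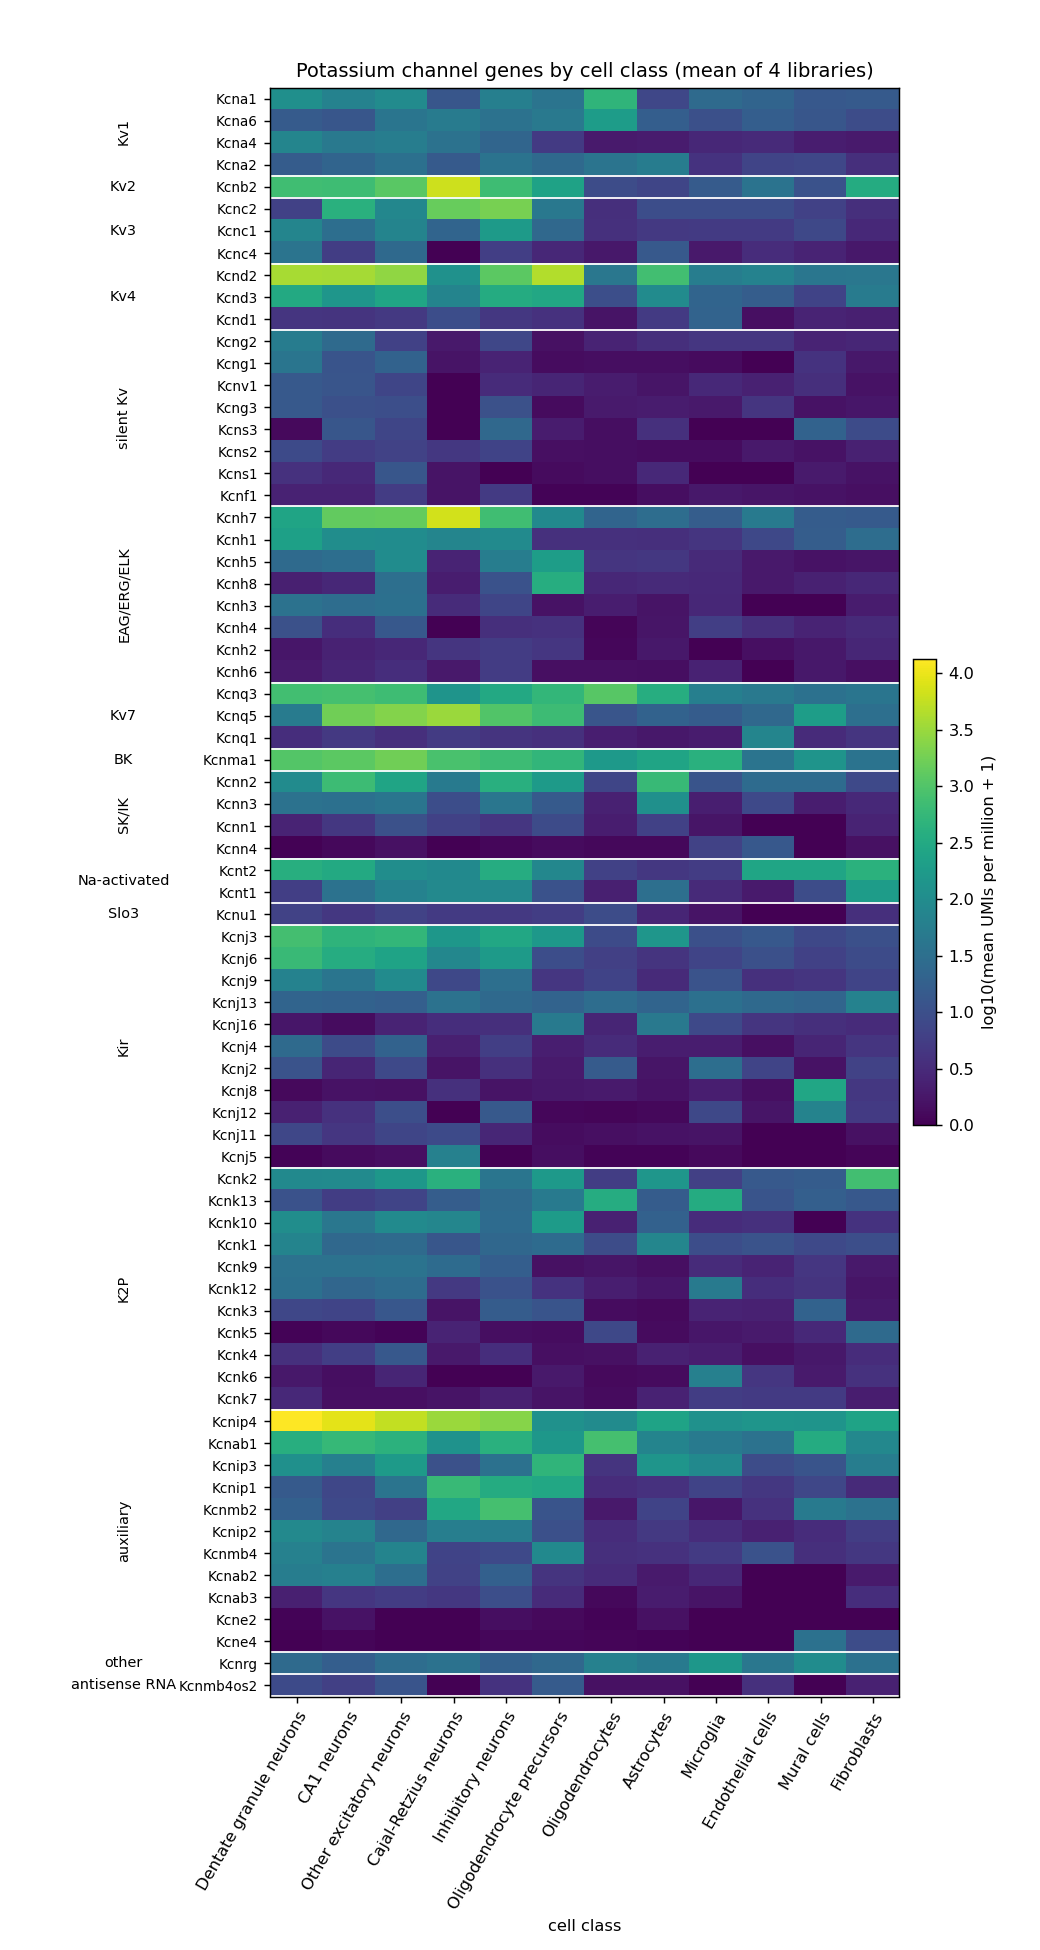
Mean level of potassium channel genes with at least 100 UMIs (rows, by family) in 12 cell classes (columns), as the log10 of mean CPM over 4 libraries plus 1. Kcnip4 is bright in every excitatory class, Kcnb2 and Kcnh7 in Cajal-Retzius neurons, Kcnd2 in precursors and excitatory neurons, while Kcnj8, Kcnk6 and Kcnj5 each stand out in 1 column.

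Kv1 channels are low-threshold channels of axons. Kcna1 (Kv1.1) was highest in oligodendrocytes, at 419.9 CPM in WT, 605.2 and 581.4 in PS19 and 395.0 in TG_PS19, against 92.5 to 128.6 in dentate granule neurons, the second class. The ranges do not touch. Kcna6 was likewise led by oligodendrocytes, at 193.0, 184, 186 and 193.4 CPM, with 31.6 to 74.0 in Cajal-Retzius neurons. Kcna4, an A-type pore, led in dentate granule neurons (100.9, 76.1, 71.0 and 50.8 CPM) with overlap into other excitatory neurons, and Kcna2 led in astrocytes at a mean of 52.1 CPM. The 4 remaining Kv1 members had fewer than 100 UMIs each.

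Kv2 channels carry much of the delayed rectifier current of principal neurons. Kcnb2 (Kv2.2) reached 6811, 5799, 6742 and 6198 CPM in Cajal-Retzius neurons, the early-born reelin cells of the outer layers. In the second class, other excitatory neurons, it was 1237, 1038, 1323 and 1137.

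Kv3 channels allow fast spiking. Kcnc2 (Kv3.2) was highest in inhibitory neurons, at 2302, 2013, 1791 and 1567 CPM, and its range overlapped that of Cajal-Retzius neurons (1620, 1484, 1293 and 1484). Kcnc1 (Kv3.1) was also led by inhibitory neurons, at 216.7, 184, 164.5 and 136 CPM. Kcnc4 was instead led by dentate granule neurons, at a mean of 38.0 CPM, and was above the second class in every library.

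Kv4 channels give the A-type current of dendrites. Kcnd2 (Kv4.2) was highest in oligodendrocyte precursors, at 4312, 4168, 4433 and 4797 CPM, with dentate granule neurons close behind at 3667, 3731, 4022 and 3832. The precursors were higher in each library. Kcnd3 (Kv4.3) was led by inhibitory neurons, at 428.6, 320.1, 303.7 and 298.2 CPM, but overlapped dentate granule neurons (305.6 to 331.9). Kcnd1 was low, with a mean of 19.4 CPM in microglia.

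The electrically silent subunits, which form channels only together with Kv2 pores, were low. Of 10 such members, 8 passed 100 UMIs, and 5 of those were led by dentate granule neurons: Kcng2 at 56.4, 53.6, 51.7 and 51.6 CPM, Kcng1 at 40.6, 40.6, 39.7 and 33.0, and Kcnv1, Kcng3 and Kcns2 at means of 13.2, 13.2 and 7.58. Only Kcng2 and Kcng1 of these were apart from their second class in each library. Kcns3 was led by inhibitory neurons (mean 24.2 CPM) with overlap into mural cells, and Kcns1 by other excitatory neurons (11.6).

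The ether-a-go-go group split by class. Kcnh7 (an ERG channel) reached 7023, 6568, 6719 and 7124 CPM in Cajal-Retzius neurons, against 1550, 1201, 1353 and 1432 in other excitatory neurons. Kcnh8 (an ELK channel) was led by oligodendrocyte precursors, at 399.2, 345.7, 339.6 and 369.8 CPM, with 21.9 to 44.3 in the second class, other excitatory neurons. When neurons were reclustered, a group of 18, 5, 7 and 10 nuclei of that second class had Kcnh8 first among its leading genes. Kcnh5 was led by the same precursors (198.4, 181, 201.6 and 206 CPM), and Kcnh1 by dentate granule neurons (mean 220.8). Kcnh3 led in dentate granule neurons at a mean of 34.6 CPM with overlap, and Kcnh4, Kcnh2 and Kcnh6 stayed at means of 12.6 CPM or less.

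Kv7 channels carry the M-current, a brake on repeated firing. Kcnq3 (Kv7.3) was highest in oligodendrocytes, at 1077, 1033, 1196 and 1231 CPM, above CA1 neurons (784.6, 771.5, 750.8 and 885.3) in every library. Kcnq5 (Kv7.5) was led by Cajal-Retzius neurons, at 2995, 2840, 3583 and 3491 CPM, and in dentate granule neurons it was only 45.3 to 57.1. Kcnq1 was led by endothelial cells at 99.5, 44.1, 77.0 and 78.1.

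Among the channels opened by calcium or sodium, Kcnma1, the BK pore, was highest in other excitatory neurons, at 1683, 1772, 1824 and 1598 CPM, with CA1 neurons at 1211, 1205, 1298 and 1210. Kcnn2 (SK2) was shared by CA1 neurons (636.6, 564.4, 640.8 and 820.1 CPM) and astrocytes (487.5, 565.1, 611.5 and 743.1). Kcnn3 (SK3) was led by astrocytes, at 127, 91.8, 109.9 and 139 CPM. Kcnn1 and Kcnn4 were low, with Kcnn4, the IK channel, at a mean of 12.5 CPM in endothelial cells. The sodium-activated Kcnt2 was led by fibroblasts (373.5, 383.1, 560.1 and 422.0 CPM) and overlapped dentate granule neurons, while Kcnt1, at 149, 213, 196 and 203 CPM in fibroblasts, did not overlap its second class. Kcnu1 (Slo3), known from sperm, was at 7.92 to 8.46 CPM in oligodendrocytes.

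Of the inward rectifiers, Kcnj5 and Kcnj8 had narrow patterns, while several others were shared between classes. Kcnj3 and Kcnj6 (GIRK1 and GIRK2), which G proteins open, were led by dentate granule neurons, Kcnj3 at 831.7, 776.0, 867.7 and 689 CPM and Kcnj6 at 610.8, 624.7, 637.7 and 597.9. Kcnj9 (GIRK3) overlapped between other excitatory and dentate granule neurons. Kcnj5 (GIRK4) was found almost wholly in Cajal-Retzius neurons, at 64.0, 54.2, 58.6 and 75.1 CPM against a mean of 0.488 in the next class. Kcnj8, the pore of the vascular ATP-sensitive channel, stood at 264.3, 328.8, 266.9 and 240.4 CPM in mural cells against 1.68 to 8.28 in fibroblasts. Kcnj12 was also led by mural cells (mean 68.1 CPM), Kcnj16 was shared by precursors and astrocytes (means 49.4 and 45.8), and Kcnj2, Kcnj4 and Kcnj11 had leading means of 29.6, 25.4 and 7.34 CPM with overlap. Kcnj13 was led by fibroblasts among the 12 classes, at 54.4, 89.9, 46.6 and 78.3 CPM. In the choroid plexus nuclei, where it is a known apical channel, it reached 696.8, 581.3 and 345 CPM in PS19 replicate 1, PS19 replicate 2 and TG_PS19, from 111, 110 and 73 UMIs. With doublets kept, a setting chosen after the data were seen, the levels in WT, the PS19 libraries and TG_PS19 were 359.1, 696.8, 581.3 and 310.7 CPM. The gene lies within Gigyf2 on the other strand and overlaps its exon sequence. How the counting used strand is not given in the sources used here, so reads of the 2 genes cannot be told apart with certainty.

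Tandem-pore leak channels were shared between glia, vessels and neurons. Kcnk2 (TREK-1) was led by fibroblasts, at 680.9, 750.4, 677.1 and 929.0 CPM, with Cajal-Retzius neurons at 483.8, 335.3, 423.6 and 386.2. Kcnk13 (THIK-1), the main leak channel of resting microglia, was shared by oligodendrocytes (424.1, 303.8, 321.5 and 377.7 CPM) and microglia (316.6, 388.3, 395.9 and 287.2), with overlapping ranges. Kcnk6 was nearly restricted to microglia, at 61.1, 67.7, 56.9 and 56.0 CPM against 0 to 5.71 in endothelial cells. Kcnk10 was led by oligodendrocyte precursors (mean 180.9 CPM), Kcnk1 by astrocytes (76.1, overlapping dentate granule neurons), Kcnk5 by fibroblasts (25.6), Kcnk4 and Kcnk9 by other excitatory neurons (12.9 and 35.9), Kcnk12 and Kcnk7 by microglia (49.8 and 4.66) and Kcnk3 by mural cells (18.5).

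The auxiliary subunits held the largest totals. Kcnip4, a Kv4 partner encoded at chr5:48389502-49524907, was at 13430, 12530, 13510 and 13730 CPM in dentate granule neurons and 9608, 7696, 8747 and 9660 in CA1 neurons. Kcnab1 (Kv beta 1) was led by oligodendrocytes, at 752.9, 804.8, 899.3 and 813.6 CPM, above CA1 neurons in every library. Kcnmb2, a BK beta subunit that inactivates the channel, was led by inhibitory neurons, at 845.1, 784.6, 826.4 and 739 CPM. Kcnip3 and Kcnmb4 were led by oligodendrocyte precursors (means 495.9 and 89.5 CPM), Kcnip1 by Cajal-Retzius neurons (589.4), Kcnip2 by dentate granule neurons (87.5), Kcnab2 by CA1 neurons (61.3, with overlap), Kcnab3 by inhibitory neurons (8.64, with overlap) and Kcne4 by mural cells (33.0). Kcne2 was below 2 CPM in each of the 12 classes and reached 194.6, 169 and 161 CPM in the choroid plexus nuclei of PS19 replicate 1, PS19 replicate 2 and TG_PS19 (151.2 in WT with doublets kept). Kcnrg, a regulator that hinders Kv assembly, was led by microglia (129, 132, 142 and 206 CPM). Its span overlaps Dleu2 on the other strand, which was itself at 1435, 1639, 1788 and 1723 CPM in microglia, so the reads of Kcnrg and Dleu2 cannot be told apart with certainty. Kcnmb4os2 was at a mean of 14.5 CPM in the precursors, the class that also led for Kcnmb4, its overlapping gene on the other strand.

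Each class was compared with the mean of the other 11 classes in 1 edgeR fit over the 48 class and library sums, with library as a block. A member was called at a Benjamini-Hochberg adjusted p under 0.05 over all genes and a fold of at least 1 on the log2 scale. The fit tested 70 members. A gene confined to 1 class passes the count filter through that class, so these counts describe the contrasts and support nothing further. The count of members called higher was 53 in other excitatory neurons (20.1% of all genes tested were called higher there), 47 in CA1 neurons (20.2%), 43 in dentate granule neurons (18.9%), 41 in inhibitory neurons (19.1%), 24 in oligodendrocyte precursors (16.8%) and 21 in Cajal-Retzius neurons (11.1%). It was 13 in astrocytes (18.0%), 11 in fibroblasts (17.3%), 10 in mural cells (12.5%), 9 in microglia (17.3%), 9 in oligodendrocytes (14.5%) and 4 in endothelial cells (14.4%). The members called lower numbered 35 in microglia (19.8%), 35 in oligodendrocytes (16.8%), 33 in endothelial cells (13.6%), 31 in fibroblasts (10.2%), 29 in mural cells (12.3%) and 28 in astrocytes (10.2%), and in the remaining classes 9 in dentate granule neurons (12.6%), 9 in precursors (6.7%), 5 in CA1 neurons (11.2%), 4 in Cajal-Retzius neurons (6.48%), 3 in other excitatory neurons (9.1%) and 1 in inhibitory neurons (6.5%).

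The 3 members with the largest fold in each class were as follows, in log2 ± SE from edgeR's quasi-likelihood fit. In oligodendrocyte precursors Kcnh8 led at 7.28 ± 0.12, with Kcnh5 (5.15 ± 0.17) and Kcnip1 (4.65 ± 0.11). In oligodendrocytes they were Kcnk13 (4.46 ± 0.09), Kcna1 (4.29 ± 0.07) and Kcnk5 (3.57 ± 0.31), and in astrocytes Kcnj16 (4.18 ± 0.17), Kcnn3 (4.01 ± 0.12) and Kcnn2 (3.49 ± 0.11). Each list holds 3 of 70 tested members, so the absence of a shared gene between precursors and oligodendrocytes is not read as a result. Microglia were led by Kcnk6 (6.42 ± 0.28), Kcnk13 (3.98 ± 0.13) and Kcnn4 (3.78 ± 0.63), the channel through which calcium hyperpolarizes immune cells. Mural cells were led by Kcnj8 (8.03 ± 0.20), Kcnmb1 (7.55 ± 0.57), the smooth muscle BK subunit with only 69 UMIs in all, and Kcne4 (7.44 ± 0.46). Endothelial cells gave Kcnn4 (5.17 ± 0.62), Kcnq1 (4.84 ± 0.28) and Kcnk6 (2.15 ± 0.83), and fibroblasts Kcnk5 (5.18 ± 0.32), Kcne4 (5.17 ± 0.46) and Kcnt1 (3.79 ± 0.12).

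Among neurons, Cajal-Retzius neurons were led by Kcnj5 (8.26 ± 0.39), Kcnh7 (6.10 ± 0.12) and Kcnc2 (5.92 ± 0.14). Dentate granule neurons were led by Kcng1 (5.43 ± 0.18), Kcnj6 (5.10 ± 0.11) and Kcnip4 (5.01 ± 0.12), CA1 neurons by Kcnab2 (5.01 ± 0.17), Kcnh3 (4.47 ± 0.22) and Kcnc2 (4.43 ± 0.13), and other excitatory neurons by Kcnh3 (4.53 ± 0.24), Kcnq5 (4.39 ± 0.12) and Kcng1 (4.25 ± 0.27). Inhibitory neurons were led by Kcnc2 (6.57 ± 0.11), Kcnmb2 (6.47 ± 0.13) and Kcnip1 (4.83 ± 0.12). These are on the log2 scale too, and of the genes named here endothelial Kcnk6 had the weakest test, with a Benjamini-Hochberg adjusted p of 0.03438 in edgeR.

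Dentate granule neurons and CA1 neurons differed in 22 members, 14 higher (6.55% of all genes) and 8 lower (9.13%). Higher in granule neurons were Kcnc4 (log2 3.13 ± 0.22, edgeR adjusted p 7.037e-17), Kcnj2 (2.37 ± 0.39, 1.471e-06) and Kcnh4 (2.05 ± 0.31, 4.144e-07). Lower were Kcnc2 (-6.25), Kcnq5 (-5.06) and Kcns3 (-5.06). Kcnc2 stood at 8.21, 2.02, 8.11 and 3.12 CPM in granule neurons and at 422.2, 389.3, 357.6 and 497.6 in CA1 neurons. Inhibitory neurons differed from the mean of the excitatory classes in 35 members, 10 higher (9.33% of all genes) and 25 lower (6.06%). The highest were Kcnmb2 (log2 6.34 ± 0.15, edgeR adjusted p 7.491e-37), Kcnc2 (4.87 ± 0.14, 4.168e-33) and Kcnip1 (4.33 ± 0.12, 2.066e-34), an inactivating BK subunit, a fast-spiking pore and a Kv4 partner. Kcnip4 (-2.07), Kcnd2 (-1.70), Kcnq3 (-1.49) and Kcnma1 (-1.12) were among those called lower.

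Reclustering the neurons other than granule cells, a step chosen after the data were seen, set a CA3-like group apart within the CA1 class and separated 2 kinds of interneuron. The CA3-like group was small, with 55, 21, 25 and 41 nuclei. Kcnq5 was at 3544, 3531, 4108 and 3146 CPM there, against 1070, 906.2, 1038 and 1242 in the rest of the CA1 class. Kcnh7 went the other way, at 12.7, 44.3, 45.5 and 84.9 CPM against 2096, 1434, 1734 and 1781. Kcnd2 was lower in the CA3-like group (2009, 1897, 1831 and 2327 CPM against 4594, 3526, 3997 and 4536), and Kcnc2 was higher (800.8, 587.5, 567.8 and 720.1 against 320.1, 322.4, 273.8 and 438.3). None of these ranges overlapped. Among interneurons, Lhx6-type nuclei, which include the fast-spiking cells, had Kcnma1 at 978.4, 1294, 726.7 and 910.6 CPM against 494.2, 351, 384.8 and 464.5 in Adarb2-type nuclei. Adarb2-type nuclei were the higher for Kcnt2 (568.8, 912.3, 639.6 and 942.7 CPM against 85.7, 62.9, 236 and 93.4) and Kcnip4 (3800, 4784, 4131 and 6677 against 1850, 1368, 1037 and 1904). These groups were formed without the channel genes but hold as few as 17 nuclei in a library, and no test was run on them.

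Along the oligodendrocyte lineage precursors and oligodendrocytes held different channel sets. The mean level was 4427 CPM in precursors and 42.4 in oligodendrocytes for Kcnd2, 363.6 and 1.93 for Kcnh8, and 495.9 and 3.25 for Kcnip3. It was 38.3 against 500.4 CPM for Kcna1, 152 against 817.7 for Kcnab1 and 47.0 against 356.8 for Kcnk13. The newly formed oligodendrocytes between them numbered only 1 to 20 per library. Their means weigh each library alike, and the WT library held 1 nucleus with 5069 UMIs, so these means are rough. In this class Kcnd2 was at 74.7 CPM, near the oligodendrocyte level, and Kcna1 was at 29.9, near the precursor level. Kcnq3 was at 721.9, between the precursors (542.1) and the oligodendrocytes (1134), while Kcnab1 (11.4) and Kcnk13 (1.51) were below both.

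The comparison of PS19 with WT asks what the tau transgene changes. Within each class the 4 library sums entered 1 edgeR quasi-likelihood fit with Benjamini-Hochberg adjustment over all genes of the class at 0.05. The lone WT and TG_PS19 libraries were assumed to vary like the PS19 pair, which gives 1 residual degree of freedom. Of 500 class and gene pairs, 43 (8.6%) were called, 12 higher and 31 lower, in 27 genes. Over all genes 2.9% of pairs were called, 1.39% higher and 1.51% lower. The median change of the 500 pairs was -0.07 on the log2 scale, with 216 above 0, and the median of all genes lay between -0.0006 and 0.02 in every class. Most calls lay outside neurons: 40 of 229 pairs in the other classes (4.26% for all genes there) and 3 of 271 in neuron classes (1.16%), a split whose difference was not tested. In oligodendrocytes 2 members were called higher and 12 lower of 52 (7.15% of all genes there were called), in astrocytes 4 and 5 of 49 (5.97%), and in microglia 3 and 4 of 26 (8.53%). The counts were 0 and 5 of 28 in fibroblasts (2.27%), 2 and 2 of 16 in mural cells (1.41%), 0 and 3 of 68 in dentate granule neurons (3.03%) and 1 and 0 of 16 in endothelial cells (0.609%). The shares in astrocytes, microglia and oligodendrocytes are to be read against these high backgrounds. By edgeR 0 members were called in CA1 neurons (0.225% of all genes, 12 members at an unadjusted p under 0.05), in other excitatory neurons (0.586%, 10 members) and in inhibitory neurons (0.678%, 8 members). The same held for precursors (0.167%, 3 members) and Cajal-Retzius neurons (0.264%, 1 member). DESeq2 gave 0 in these classes too. By DESeq2 only 4 pairs were called in all, 1 higher and 3 lower (0.239% of all genes): oligodendrocyte Kcnip4, Kcnd2 and Kcna1 and astrocyte Kcnma1.

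In oligodendrocytes most calls were losses of genes that are far higher in other classes. Kcnip4 was at 160.1 CPM in WT, 65.5 and 47.6 in PS19 and 118.7 in TG_PS19, and fell by 1.47 ± 0.13 on the log2 scale (edgeR adjusted p 6.388e-28). Kcnd2 was at 66.8, 27.2, 28.4 and 47.3 CPM (-1.22 ± 0.15, edgeR adjusted p 5.843e-14), and Kcnj3 at 16.3, 3.12, 4.15 and 7.37 (-2.09 ± 0.30, 3.525e-10). For all 3, both PS19 libraries lay below WT and TG_PS19. Kcnk1 (-1.39), Kcnb2 (-1.35), Kcnh7 (-0.87), Kcnq5 (-1.08) and Kcnip3 (-1.97) were also called lower, as were Kcnj16, Kcnn2, Kcnj9 and Kcnk13. In WT oligodendrocytes 10 of the 12 genes called lower stood at less than 10% of the level in their leading class, Kcnip4 at 1.2% and Kcnd2 at 1.51%. The summed level of 9 neuron markers moved in the same direction in this class, at 137, 61.1, 45.1 and 94.99 CPM, with 8 of the 9 lower in both PS19 libraries than in WT. Its part in these calls was not tested.

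Kcna1 and Kcnk13, genes for which oligodendrocytes are a leading class, went in opposite directions. Kcna1 was at 419.9 CPM in WT, 605.2 and 581.4 in PS19 (mean 593.3 ± 16.9, SD, n = 2) and 395.0 in TG_PS19, and rose by 0.54 ± 0.12 on the log2 scale in PS19 (edgeR adjusted p 0.0005597). Both PS19 libraries were above the other libraries. Kcnk13 was at 424.1, 303.8, 321.5 and 377.7 CPM, and fell by 0.40 on the log2 scale (edgeR adjusted p 0.0178). Kcnrg was also called higher, at 52.4 CPM in WT against 64.9 and 73.7 in PS19 (0.45).

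**Figure D2:**
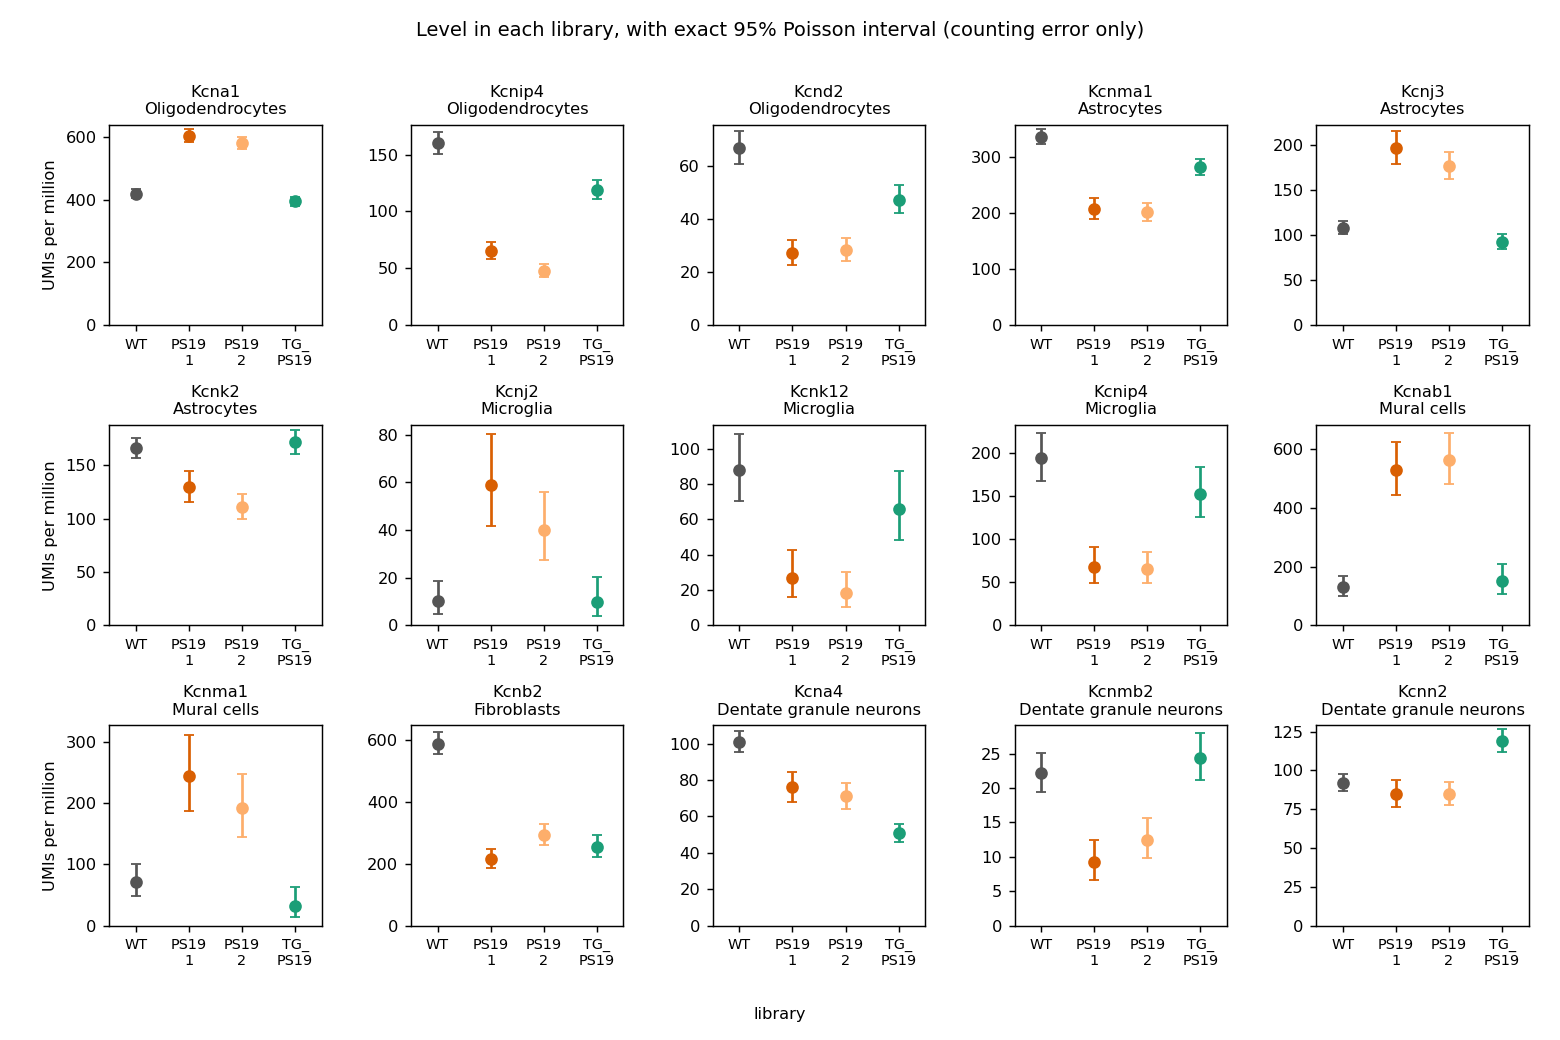
Level of 15 gene and class pairs in each library, as CPM with exact 95% Poisson intervals, which cover counting error only. In most panels both PS19 points lie on the same side of WT and TG_PS19. In dentate granule neurons Kcna4 is lowest in TG_PS19 (50.8 CPM) and Kcnn2 highest there (118.9 CPM).

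In microglia 4 members were called lower and 3 higher. At the finer cluster resolution the class split into a cluster led by Siglech, with 92.3%, 15.1%, 16.7% and 91.6% of the microglia of each library, and one led by Ly86 and Fyb, with 7.74%, 84.9%, 83.3% and 8.42%. PS19 microglia and those of the other libraries lay mostly in different clusters, and the part of this in the changes below was not tested. Kcnip4 was at 194.4, 67.7, 65.4 and 152.7 CPM (-1.55 ± 0.22, edgeR adjusted p 1.176e-10) and Kcnk12, a THIK channel, at 88.2, 27.1, 18.2 and 65.9 (-1.99 ± 0.31, 1.839e-08). Kcnj2 (Kir2.1), an inward rectifier of activated microglia, was at 10.0, 58.7, 40.0 and 9.81 CPM (2.26 ± 0.43, 1.138e-05). These levels rest on 10, 39, 33 and 7 UMIs in 10, 31, 30 and 6 nuclei of 585, 259, 288 and 392, so no single nucleus carried them. Within the Siglech cluster Kcnj2 was at 8.67, 11.9, 36.9 and 10.4 CPM and Kcnk12 at 94.2, 71.1, 29.5 and 68.1. Within the Ly86 cluster Kcnj2 was at 21.7, 64.2, 39.1 and 16.6 CPM and Kcnk12 at 10.9, 20.3, 15.4 and 16.6, many of these values from fewer than 10 UMIs. Kcnip4 was lower in both PS19 libraries than in WT in each cluster (193.9, 71.1, 73.9 and 155.5 CPM, and 239.1, 67.6, 64.2 and 116.1). Kcnq3 (37.1, 85.8, 70.2 and 46.2 CPM) and Kcnma1 (329.6, 492.1, 449.2 and 413.3 CPM) were called higher, and Kcnb2 and Kcnd2 lower. Kcnd2 was split between the PS19 libraries (69.2 and 14.5 CPM), with 50% of the UMIs of replicate 1 in 1 nucleus. The neuron markers in microglia were at 167, 60.2, 47.2 and 113.5 CPM, 7 of 9 lower in both PS19 libraries than in WT, and their part in the losses was not tested. With doublets kept, all 7 microglial calls were lost, as were the 6 of TG_PS19 against PS19 in this class. Kcnj2 kept its size (2.24, edgeR adjusted p 0.1416), Kcnk12 was at -1.53 (0.1682), Kcnip4 at -0.71 (0.5581) and Kcnd2 at -0.57 (0.7472), and Kcnq3 reversed to -0.37 (0.4329).

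In astrocytes the calls went both ways. Kcnma1 was at 337.2, 208.5, 202.3 and 282.4 CPM (-0.74 ± 0.13, edgeR adjusted p 8.599e-07), Kcnk2 at 166.1, 129.6, 111.1 and 171.9 (-0.50), and Kcna2, Kcnb2 and Kcnc4 were lower too. Kcnj3 was at 108.2, 197.3, 177 and 92.2 CPM (0.76 ± 0.14, 3.965e-06), Kcnd3 at 72.1, 104.2, 120.2 and 83.6 (0.62), Kcnq3 at 296.3, 398, 453.9 and 319.1 (0.50) and Kcnmb2 at 2.39, 10.8, 7.80 and 1.76 (1.89). The class held 2 clusters whose shares moved with genotype. The cluster led by Myoc, Gfap and Aqp4 made up 15.3% of astrocytes in WT, 38.8% and 40.4% in PS19 and 14.2% in TG_PS19. Within it Kcnj3 was at 483.5, 423.3, 366.5 and 340.5 CPM, and in the larger cluster at 42.9, 40.8, 34.5 and 50.8. In the larger cluster alone the change of Kcnj3 reversed to -0.17 (edgeR adjusted p 0.9418). Kcnd3 by contrast was higher in PS19 in both clusters (70.2, 103.5, 117.1 and 81.8 CPM in the larger, 83.1, 105.3, 124.3 and 94.3 in the smaller). Kcnma1 was lower in both PS19 libraries in each cluster, at 267.5 and 235.2 CPM against 336.1 in WT in the larger, where the call was lost, and at 123.2 and 158.5 against 343.6 in the smaller.

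**Figure D3:**
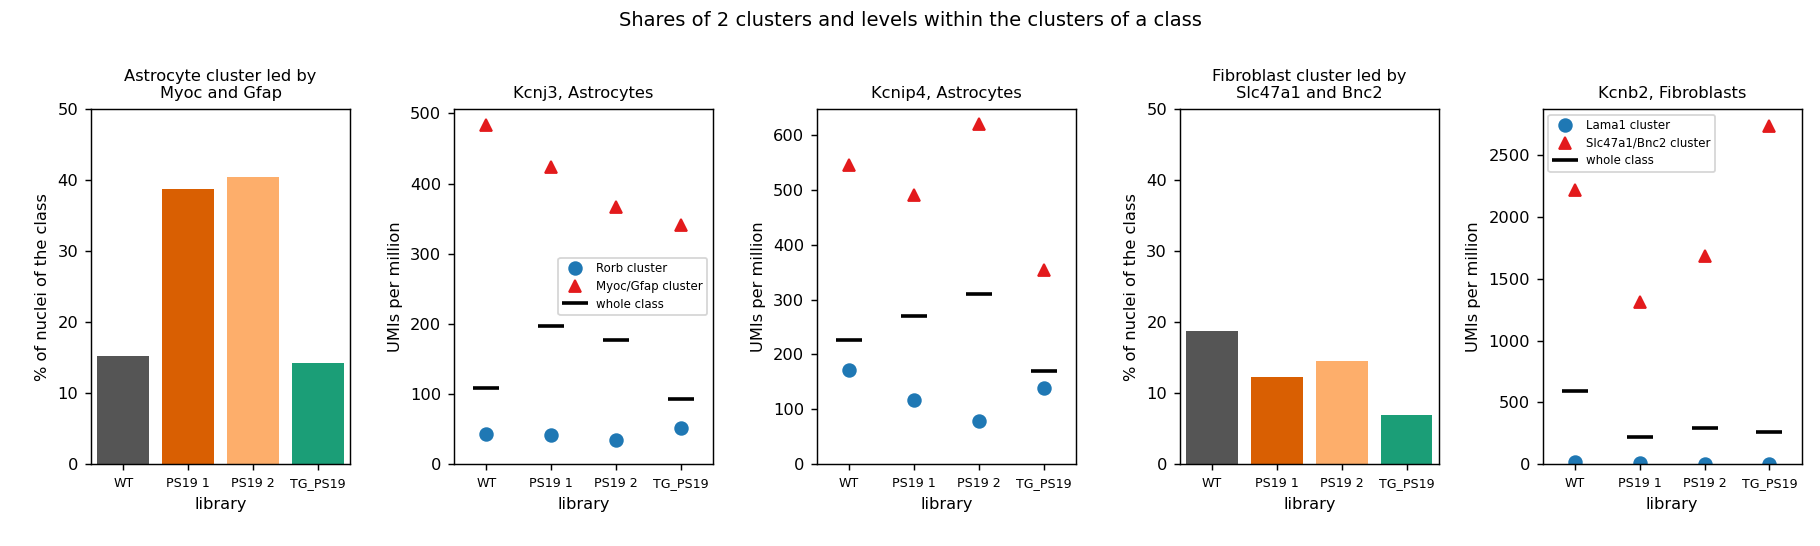
Share of nuclei in the Myoc and Gfap cluster of astrocytes and in the Slc47a1 and Bnc2 cluster of fibroblasts (bars, percent of the class in each library), and CPM of Kcnj3, Kcnip4 and Kcnb2 in each cluster and in the whole class. Whole-class Kcnj3 is highest in PS19 (197.3 and 177 CPM), while within each of the 2 astrocyte clusters neither PS19 library is the highest.

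Vascular and meningeal classes gave 10 of the 43 calls. In mural cells Kcnab1 was at 129.9 CPM in WT, 530 and 563.5 in PS19 and 152.2 in TG_PS19 (2.09 ± 0.27, edgeR adjusted p 2.256e-11), and Kcnma1, whose BK channel relaxes smooth muscle, at 70.6, 243.7, 191.1 and 32.0 (1.63 ± 0.34, 0.0004458). In both genes the PS19 libraries stood above the others. The smooth muscle markers Acta2 and Myh11 in this class stood at 139, 665.4, 688.7 and 84.1 CPM, while a pericyte-associated list stood at 12700, 10970, 11000 and 10760. The part of this shift in the calls was not tested. Kcnip4 (257.4, 54.2, 59.3 and 160.3 CPM, -2.15) and Kcnd2 (97.96, 23.2, 26.4 and 16.03, -1.94) were lower in mural cells. In WT mural cells they stood at 1.94% and 2.21% of the level in their leading classes. In fibroblasts Kcnb2 was at 590, 215.7, 294 and 256.1 CPM (-1.19 ± 0.15, 2.706e-11), and Kcnip4 (-0.72), Kcnk5 (-1.26), Kcnq5 (-1.20) and Kcnh1 (-1.13) were lower as well. In WT fibroblasts Kcnb2, Kcnip4, Kcnq5 and Kcnh1 stood at 9.24%, 2.45%, 1.69% and 22.9% of the level in their leading classes. Kcnk5 was led by fibroblasts themselves. The part of neuron markers in the mural and fibroblast calls was not tested. Fibroblast Kcnb2 came from a cluster led by Slc47a1 and Bnc2, where it was at 2217, 1310, 1685 and 2735 CPM and which made up 18.7%, 12.3%, 14.5% and 6.92% of the class. In the larger cluster it was at 19.7, 8.02, 2.50 and 4.39 CPM, and the call was lost there. In endothelial cells Kcnh7 was called higher (14.5, 8.02, 142.7 and 22.3 CPM), but 58% of the UMIs of PS19 replicate 2 lay in 1 nucleus, and without that library the change was -0.80.

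**Figure D4:**
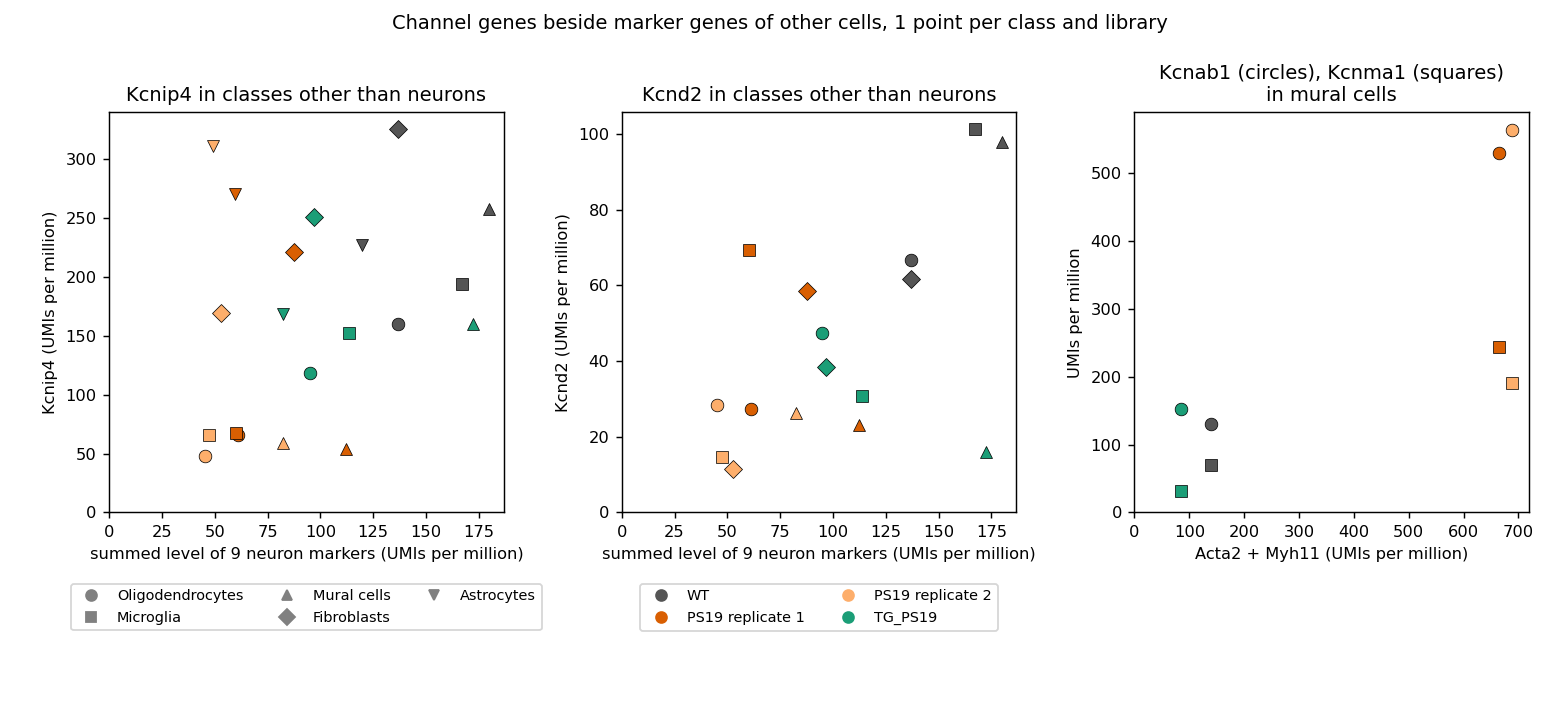
Kcnip4 (left) and Kcnd2 (middle) in classes other than neurons against the summed CPM of 9 neuron markers, and Kcnab1 and Kcnma1 in mural cells against Acta2 plus Myh11 (right), 1 point per class and library. In oligodendrocytes and microglia both axes of the left panel are lowest in PS19, and in mural cells both PS19 libraries lie at the upper right.

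In neurons only 3 pairs were called, all lower and all in dentate granule neurons. Kcnmb2 was at 22.1, 9.20, 12.5 and 24.4 CPM (-0.98 ± 0.19, edgeR adjusted p 7.465e-05), with PS19 below the other libraries. Its WT level there was 2.77% of the mean in inhibitory neurons, its leading class. Kcna4 was at 100.9, 76.1, 71.0 and 50.8 CPM (-0.44 ± 0.11, 0.006071) and Kcnk2 at 110.5, 88.2, 82.7 and 75.0 (-0.36 ± 0.11, 0.04397). For the last 2 the TG_PS19 library was lower still.

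Setting TG_PS19 against PS19 addresses the effect of the SORLA transgene in mice that carry human tau. It shares the PS19 libraries with the comparison above, so a gene high or low in PS19 alone appears in both, and no overlap between them is counted as a result. Of 500 pairs 46 (9.2%) were called by edgeR, 32 higher and 14 lower, in 22 genes, against 4.89% of all genes, 3.17% higher and 1.72% lower. The median change was 0.09 on the log2 scale, with 295 of 500 above 0. With library totals in place of TMM scaling, which moved the median gene by -0.1777 to -0.0385 on the log2 scale depending on the class, the split was 26 higher and 21 lower. Neuron classes had 14 higher and 4 lower (3.9% of all genes) and the other classes 18 and 10 (5.67%). Higher and lower calls were 6 and 3 in astrocytes (9.42% of all genes there), 6 and 2 in oligodendrocytes (9.51%), 6 and 3 in dentate granule neurons (8.86%) and 4 and 2 in microglia (8.96%). They were 4 and 0 in CA1 neurons (1.91%), 3 and 1 in other excitatory neurons (3.16%), 1 and 2 in mural cells (1.55%), 1 and 0 in inhibitory neurons (1.72%), 1 and 0 in fibroblasts (2.14%) and 0 and 1 in precursors (1.45%). Cajal-Retzius neurons (0.511%) and endothelial cells (0.636%) had 0 by edgeR and by DESeq2, with 1 and 2 members at an unadjusted p under 0.05. DESeq2 called 4 (0.508% of all genes): oligodendrocyte Kcnip4 and Kcna1 and astrocyte Kcnh7 and Kcnj3.

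Genes that were at an extreme in PS19 and nearer to WT in TG_PS19 included several named above. Kcnip4 differed by 1.14 ± 0.13 in oligodendrocytes (edgeR adjusted p 1.281e-15), by 1.29 in microglia and by 1.53 in mural cells, and Kcnd2 by 0.82 in oligodendrocytes. Kcnab1 (-1.80, 3.39e-07) and Kcnma1 (-2.70, 1.833e-06) differed in mural cells, Kcnj2 (-2.20) and Kcnk12 (1.66) in microglia, Kcna1 (-0.53, 0.0007797) in oligodendrocytes, and Kcnmb2 (1.24 ± 0.20, 4.614e-08) in dentate granule neurons. In astrocytes Kcnj3 differed by -0.84 (5.134e-07), Kcnk2 by 0.70, Kcnma1 by 0.64 and Kcnmb2 by -2.18. Astrocyte Kcnip4 (227.1, 270.5, 310.9 and 168.9 CPM, -0.61) was also called lower, but there TG_PS19 lay below WT. In the larger astrocyte cluster alone Kcnip4 and Kcnj3 reversed, to 0.64 and 0.56. The marker lists of neurons, smooth muscle and the Myoc and Gfap cluster lay nearer to WT in TG_PS19, as given above.

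In other calls TG_PS19 was the highest or the lowest of the 4 libraries. Kcnj13 was higher in oligodendrocytes (23.0, 24.9, 25.4 and 43.9 CPM, 0.86 ± 0.16, edgeR adjusted p 7.116e-06), astrocytes (13.9, 16.4, 17.2 and 34.0, 1.19 ± 0.23, 8.364e-06), dentate granule neurons (16.4, 19.5, 17.8 and 28.4, 0.71), CA1 neurons (15.6, 14.2, 15.2 and 31.5, 1.22) and other excitatory neurons (13.6, 8.30, 16.03 and 27.8, 1.22). Its host gene Gigyf2 was at 184.8, 173.8, 189.2 and 186.4 CPM in oligodendrocytes and 141.8, 154.2, 159.5 and 138.3 in astrocytes. It was at 155.6, 171.4, 157.0 and 148.6 in dentate granule neurons, 150.3, 159.4, 148.1 and 135.7 in CA1 neurons and 155.3, 179.8, 144.3 and 159.1 in other excitatory neurons. In fibroblasts, where Kcnj13 was not called, Gigyf2 was at 209.2, 179.7, 194.6 and 296.0. The part of Gigyf2 reads in the Kcnj13 calls was not tested. The choroid plexus transcript Ttr was at 29.8, 44.3, 27.2 and 64.3 CPM in oligodendrocytes, 19.9, 33.2, 20.3 and 46.9 in astrocytes and 11.1, 19.1, 14.03 and 23.4 in dentate granule neurons, and its part was not tested. Kcnn2 was highest in TG_PS19 in dentate granule neurons (92.2, 84.8, 84.7 and 118.9 CPM, 0.58 ± 0.11, 1.023e-05), astrocytes (0.51), other excitatory neurons (0.70) and CA1 neurons (0.56). In astrocytes Kcnn2 was higher in TG_PS19 in both clusters, at 479.8, 549.6, 610.4 and 732.5 CPM in the larger and 531.9, 587.5, 612.9 and 806.7 in the smaller. Kcnn3 was higher in astrocytes (0.63) and inhibitory neurons (22.5, 33.0, 29.2 and 75.7 CPM, 1.36), but in TG_PS19 nuclei with Y-linked UMIs only the inhibitory change was -0.22.

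Kcnh7 was higher in TG_PS19 than in PS19 in astrocytes (29.2, 15.9, 22.8 and 47.3 CPM, 1.43 ± 0.20, edgeR adjusted p 2.92e-10), oligodendrocytes (0.79) and dentate granule neurons (278.5, 213.9, 239.7 and 284.2 CPM, 0.42). In oligodendrocytes it had also been called lower in PS19 than in WT, by a similar amount, so the extreme there was PS19. WT astrocytes and oligodendrocytes held Kcnh7 at 0.425% and 0.397% of its level in Cajal-Retzius neurons. Kcnj2 was lower in dentate granule neurons (11.7, 12.1, 12.7 and 4.55 CPM, -1.35) and Kcnma1 in oligodendrocytes (180.4, 179.2, 196.3 and 123.8 CPM, -0.54). In both, TG_PS19 was the lowest library by a margin wider than the range of the others. Kcnc2 in other excitatory neurons was called higher (74.4, 62.7, 56.5 and 124.3 CPM, 1.15 ± 0.20, 4.951e-06). Its level depended on the cluster, at 47.4, 32.4, 14.1 and 147.4 CPM in one and 119.2, 137.5, 133.5 and 88.2 in the other, and at a finer cluster resolution the change was -0.53.

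TG_PS19 against WT, which shares a library with each comparison above, gave 27 called pairs of 500 (5.4%), 15 higher and 12 lower, in 21 genes, against 2.02% of all genes, 1.41% higher and 0.604% lower. The median change was 0.0086. With library totals the split was 12 higher and 15 lower. With the TG_PS19 nuclei restricted to those with Y-linked UMIs only, 17 pairs were called and 8 of them were among the 27, all 27 keeping their direction. In all, 14 calls lay in dentate granule neurons, 8 higher and 6 lower of 68 tested (5.85% for all genes there). Astrocytes had 3 and 0 (2.35%), fibroblasts 0 and 3 (2.56%), inhibitory neurons 2 and 0 (1.8%), oligodendrocytes 1 and 1 (3.37%), other excitatory neurons 1 and 1 (1.35%) and microglia 0 and 1 (0.825%). By edgeR and DESeq2 0 members were called in CA1 neurons (0.62%), precursors (0.263%), mural cells (0.232%), Cajal-Retzius neurons (0.247%) and endothelial cells (0.49%), with 10, 5, 3, 2 and 1 members at an unadjusted p under 0.05. Kcna4 had the smallest adjusted p, at 100.9 CPM in WT and 50.8 in TG_PS19 (-0.88 ± 0.13, edgeR adjusted p 1.417e-08), with PS19 between them. Kcnq3 ran the other way, at 653.7, 740.1, 790.5 and 853.9 CPM (0.50 ± 0.12, 0.001705), as did Kcnh5 (19.1, 22.2, 31.4 and 31.6 CPM, 0.84), Kcnab2 (48.8, 55.4, 52.9 and 66.7, 0.57), Kcnk9 (0.55), Kcnn3 (0.63), Kcnn2 (0.48) and Kcnk13 (0.86), and Kcnj13 (0.90). Lower were Kcnj2 (-1.24), Kcnk2 (-0.44), Kcnc2 (-1.28), Kcnj4 (29.1, 30.7, 24.2 and 17.4 CPM, -0.63) and Kcnk1 (84.3, 76.3, 67.4 and 58.1 CPM, -0.42). For Kcnc2, which was low in granule neurons, the PS19 libraries lay further apart than WT and TG_PS19 did.

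Outside granule neurons, Kcnj13 was higher than in WT in astrocytes (1.43, edgeR adjusted p 1.405e-06) and oligodendrocytes (1.03), and Kcnn2 (0.76, 6.518e-05) and Kcnh7 (0.85) in astrocytes. Inhibitory neurons had Kcnh5 (28.1, 27.8, 71.0 and 96.2 CPM, log2 1.84 ± 0.34) and Kcnn3 (1.82) higher. For Kcnh5 the PS19 libraries were split, 1 near WT and 1 near TG_PS19. The makeup of the class differed between libraries: a reclustered group led by Zfp804b and Pde1c held 20.34%, 0%, 0% and 3.61% of inhibitory nuclei, and one led by Ebf2 0.56%, 13.79%, 9.52% and 15.66%. The part of this in the calls was not tested. Fibroblast Kcnb2 (-1.14, 1.498e-06), Kcnk5 (-1.99) and Kcnh1 (-1.37), oligodendrocyte Kcnj3 (-1.04), microglial Kcnd2 (-1.62) and Kcnip1 in other excitatory neurons (58.5, 28.6, 39.0 and 26.2 CPM, -1.08) were lower. Within the Slc47a1 and Bnc2 cluster of fibroblasts, Kcnb2 was at 2217 CPM in WT and 2735 in TG_PS19. In the larger fibroblast cluster it was at 19.7 and 4.39. The Slc47a1 and Bnc2 cluster made up 18.7% of WT and 6.92% of TG_PS19 fibroblasts, and its part in the Kcnb2 call was not tested. In the other excitatory class a group led by Pcdh11x held 0%, 15.18%, 20.16% and 0.93% of nuclei, and its part in the Kcnip1, Kcnn2 and Kcnip4 calls of this class was not tested. Kcnc2 in other excitatory neurons was higher (0.81) and, at the finer resolution, -0.34. DESeq2 called 3 pairs (0.0962% of all genes): granule neuron Kcna4 and Kcnq3 and astrocyte Kcnn2.

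A list of 31 genes that bind, place or work with potassium channels was read in the same fits. Of its 28 tested genes in 274 pairs, 4 pairs were called higher and 20 lower in PS19 against WT (2.9% of all genes called in either direction), with a median of -0.07. TG_PS19 against PS19 gave 17 higher and 6 lower (4.89% of all genes, median 0.09), and TG_PS19 against WT 3 and 7 (2.02% of all genes, median -0.05). Atp1b1 and Atp1b2, subunits that carry the sodium-potassium pump to the membrane, and Lgi1, a secreted partner of Kv1 complexes, were lower in oligodendrocytes. Atp1b1 was at 106.1, 45.1, 36.5 and 61.9 CPM there (-1.34, edgeR adjusted p 1.279e-20) and at 128.2, 40.6, 40.0 and 77.1 in microglia (-1.68, 3.422e-08). Atp1b3, another subunit of that kind, was called higher in oligodendrocytes, at 137.3, 202.5, 197.0 and 154.7 CPM (0.58, 0.00017). Atp1b1 was at 452.3 CPM in WT dentate granule neurons. The summed neuron markers moved in the same direction as Atp1b1 in oligodendrocytes and in microglia, and their part was not tested. The microglial Atp1b1 call was lost under 2 alternative settings. Cntnap2 in endothelial cells was called higher from PS19 replicate 2 alone (30.8, 28.1, 268.2 and 13.9 CPM).

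In TG_PS19 against PS19, Hcn2, a hyperpolarization-activated channel, was lower in oligodendrocytes, at 154, 217.7, 175.3 and 84.5 CPM (-1.16, edgeR adjusted p 1.411e-15), below WT too (-0.77). Dpp10, a Kv4 partner, was higher in oligodendrocytes (13.4, 7.69, 10.5 and 21.9 CPM, 1.31) and dentate granule neurons (38.9, 35.2, 41.2 and 59.0 CPM, 0.71). Atp1b1 was higher in oligodendrocytes (0.67). Against WT, Atp1b1 was lower in dentate granule neurons (452.3, 480.4, 424.2 and 306.2 CPM, -0.45).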

How the data were processed

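The values are UMI counts as the authors deposited them. The submitters' processing notes name Cell Ranger 7.1.0 and GRCm38. The counting of strand and introns is not given in the sources used here. The members and gene lists were chosen with earlier results of these data known. Barcodes needed 500 UMIs, 300 genes and at most 5% mitochondrial UMIs, which removed 0 to 4 per library, and 172 to 1303 were removed as likely doublets. Clusters (scanpy 1.11.5, leidenalg 0.10.2, 2000 variable genes, 30 components, resolution 1.0) were formed without members, Kcnj10, sex-linked, mitochondrial and transgene genes. Of 26 clusters, 5 stayed unnamed (1517 nuclei). Oligodendrocyte markers of both stages counted as 1 lineage, a choice made after seeing the clusters. Counts were summed per class and library and tested two-sided with edgeR 4.0.16 (R 4.3.3, TMM, filterByExpr) and, as an alternative, DESeq2 1.42.0. The script was tested on simulated data. Intervals cover counting error only. Named were: each member over 100 UMIs with its leading class, up to 30 called pairs per genotype comparison by adjusted p, 3 members per class contrast, and 10 partner calls. Other pairs named were called but ranked lower. Class nuclei per library ranged from 58 to 3344. Positions and coding sequences are from GENCODE M21, which held 88 of the 94 identifiers. The text also reports reclustered neurons, choroid plexus and lineage levels without a test. Some members and partner genes are counted but not reported by name here.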

Additional observations from a re-analysis of the deposited data

Results flagged for a closer look

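Several members were called in opposite directions in different classes within a comparison, and the difference between the classes was not tested. Against WT, PS19 gave Kcnj3 at 0.759 on the log2 scale in astrocytes and -2.094 in oligodendrocytes. Kcnma1, the BK pore, was at -0.7434 in astrocytes, 0.5037 in microglia and 1.628 in mural cells, and Kcnmb2, a BK subunit, at 1.894 in astrocytes and -0.9839 in dentate granule neurons. WT astrocytes and granule neurons held Kcnmb2 at only 0.299% and 2.77% of its mean in inhibitory neurons. TG_PS19 against PS19 gave Kcnj3 at -0.8389 in astrocytes and 1.054 in oligodendrocytes, and Kcnmb2 at -2.181 in astrocytes and 1.241 in dentate granule neurons. Kcnma1 was at 0.639 in astrocytes, -2.702 in mural cells and -0.5431 in oligodendrocytes. Kcnip4 was at -0.6081 in astrocytes and -0.4628 in other excitatory neurons, and at 1.295 in microglia, 1.526 in mural cells and 1.14 in oligodendrocytes. In the larger astrocyte cluster alone these astrocyte values reversed for Kcnip4 (0.636) and Kcnj3 (0.559). For PS19 against WT, Kcnj3 reversed there too (-0.1721). The part of the astrocyte cluster shares in these calls was not tested. Kcnab1 was at 0.5572 in CA1 neurons and -1.804 in mural cells. TG_PS19 against WT gave a further gene, Kcnc2, at -1.279 in dentate granule neurons and 0.8111 in other excitatory neurons. In granule neurons its WT level was 0.428% of the mean in inhibitory neurons. The PS19 libraries lay further apart there than WT and TG_PS19 did. In other excitatory neurons the change was -0.3438 at resolution 2.0. The first 2 comparisons share the PS19 libraries.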

How the results depend on the processing

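No paired analysis was possible because the WT and TG_PS19 libraries carry no replicate number. With DESeq2 the calls of 43, 46 and 27 pairs became 4, 4 and 3 for PS19 against WT, TG_PS19 against PS19 and TG_PS19 against WT. Thinned to equal class depth they were 26 and 13 for the first and the last, and with only Y-linked TG_PS19 nuclei the last was 17, of which 8 were among the 27, and 25 of 37 named pairs (partner genes included) were no longer called. Under the other alternatives the counts ran from 29 to 48, 33 to 50 and 21 to 40. Class counts of 507, 22 and 35 ran from 439 to 556, 19 to 27 and 30 to 40, with 439 to 487, 19 to 21 and 30 to 35 when 1 library was left out. Leaving out a PS19 library gave genotype values with no test, and WT and TG_PS19 could not be left out. No named pair reversed under another scaling. Reversed were, in the largest cluster alone (chosen after seeing the data), astrocyte Kcnj3 (-0.1721 for PS19 against WT, 0.559 for TG_PS19 against PS19) and Kcnip4 (0.636). At resolution 2.0, Kcnc2 in other excitatory neurons reversed (-0.5308 against PS19, -0.3438 against WT). With doublets kept, microglial Kcnq3 reversed (-0.3731). Without PS19 replicate 2, endothelial Kcnh7 (-0.8021) and Cntnap2 (-0.1057) reversed, against 3.31 and 3.148 without PS19 replicate 1, and with Y-linked nuclei only, Kcnn3 in inhibitory neurons (-0.2176) and Kcnd3 in fibroblasts (-0.2356). Prior degrees of freedom were infinite in 9 of 12 classes, so the p-values rest on a spread shared over genes and on 1 PS19 pair. Small classes limit the tests: members tested ranged from 16 in endothelial and mural cells to 68 in dentate granule neurons.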
